A study of Mus musculus with 40 samples.

Results

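The mouse mitochondrial genome carries 9 genes that are transcribed from its light strand promoter, and their RNA levels are described here across the midbrain and spinal cord of mice given the neurotoxin MPTP and SU-Eohyeol pharmacopuncture (SUEHP). They are ND6, which encodes a subunit of respiratory complex I, and the tRNAs TrnE, TrnP, TrnS1, TrnQ, TrnA, TrnN, TrnC and TrnY, which carry glutamate, proline, serine, glutamine, alanine, asparagine, cysteine and tyrosine. The 9 symbols were taken from the 40213 gene symbols of the count tables, of which 37 are mitochondrial genes, and all 9 lie on the minus strand of the mitochondrial chromosome in the GRCm38 annotation, whereas the 28 other mitochondrial genes lie on the plus strand. The 9 genes are defined by their strand, but the set was chosen by the measured level of ND6 in the midbrain of the MPTP-SU and MPTP-Veh groups, so every midbrain comparison that uses either group is given below as a description without a test.

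Bulk RNA-seq was run on 40 libraries, with 4 libraries in each of 5 groups in each tissue. All came from male C57BL/6N mice that were 8 weeks old when obtained, before the treatments below. Con mice received saline in place of MPTP and saline at the acupuncture point GB34. All other groups received 4 intraperitoneal injections of MPTP, 20 mg/kg each, at intervals of 2 h. MPTP-Veh mice then received vehicle, and MPTP-SU mice received 4 injections of SUEHP at GB34 that began 1 week after the toxin. MPTP-SU+S mice received SUEHP with a CB1 receptor antagonist at 3 mg/kg, named SR141714A in the labels and SR141716A in the study. MPTP-SU+T mice received SUEHP with the PPARγ antagonist T0070907 at 5 mg/kg. The study describes SUEHP at GB34 also with the antagonists, but its group legends give GB35 for MPTP-SU+S. The sources used here do not say whether both tissues came from the same animals or whether each library was a separate mouse, so the p-values measure the spread between these libraries, which may be partly technical. MPTP is a toxin of dopaminergic neurons, and the design contains no group given SUEHP without MPTP. In bulk tissue, fewer cells of a type and less RNA per cell cannot be told apart.

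Mitochondrial DNA is transcribed as long RNAs that span many genes, and the tRNAs that lie between the genes mark the places where these RNAs are cut. The heavy strand promoter gives the 2 rRNAs, 14 tRNAs and 12 of the 13 mRNAs. The light strand promoter gives ND6 and 8 tRNAs, and most of the remaining light-strand RNA, which is antisense to the heavy-strand genes, is degraded. Human ND6 mRNA is known to lack a poly(A) tail, the libraries used here were poly(A)-selected, and each tRNA is shorter than the sequencing read, so the counts give levels within this assay and not the abundance of mature molecules. The strand setting of the counting is not given in the sources used here, so a read from a light-strand gene and a read from the heavy-strand precursor that runs through the same place cannot be told apart.

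Starting from the control region, a light-strand transcript meets TrnP first, then TrnE 1283 bases further on, ND6 at 1352 bases, TrnS1 at 8484 bases, TrnY at 10096 bases, TrnC at 10165 bases, TrnN at 10263 bases, TrnA at 10336 bases and TrnQ at 11580 bases (GRCm38). ND6 shares 14 bases at its 3′ end with the heavy-strand gene ND5 and is joined to TrnE with 0 bases between them. The last 300 bases of ND6 (bases 220 to 519), its neighbour TrnE, and the genes met first and last, TrnP and TrnQ, are given 5′ to 3′ as DNA letters from the GENCODE transcripts of GRCm38, to show the gene the results turn on and the ends of the set. Capitals mark the 14 bases of ND6 that overlap ND5 and the 3 bases of TrnQ that overlap TrnI.
ND6: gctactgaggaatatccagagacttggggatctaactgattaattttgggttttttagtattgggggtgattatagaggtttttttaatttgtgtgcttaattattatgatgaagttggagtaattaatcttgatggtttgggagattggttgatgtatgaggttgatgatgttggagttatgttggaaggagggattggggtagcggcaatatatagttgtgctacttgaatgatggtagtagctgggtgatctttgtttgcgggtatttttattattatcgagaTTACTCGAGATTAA
TrnE: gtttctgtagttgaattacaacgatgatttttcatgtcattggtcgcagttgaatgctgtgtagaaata
TrnP: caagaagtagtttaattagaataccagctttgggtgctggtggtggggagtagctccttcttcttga
TrnQ: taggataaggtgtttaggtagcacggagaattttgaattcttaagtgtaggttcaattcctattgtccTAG
ND6 held 28.1% G and 5.97% C over its 519 bases. The 12 heavy-strand mRNAs held 5.88 to 16.1% G and 22.1 to 29.97% C, so the base composition of ND6 lay outside their range for both letters. The 8 light-strand tRNAs measured 66 to 71 bases and held 17.9 to 29.9% G.

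Between 11958200 and 16639823 counts were assigned per midbrain library, and between 14642808 and 16615378 per spinal cord library. The lowest total belonged to midbrain MPTP-Veh library 4, which stood apart from all other libraries. Mitochondrial genes took 1.90% of its counts, against 12.7 to 20.1% in the other midbrain libraries and 13.1 to 19.5% in the spinal cord, and its summed oligodendrocyte markers reached 35362 CPM (counts scaled to a common library size by TMM) against 9712 to 14006 CPM in the other midbrain libraries. The levels, fold changes and ratios of MPTP-Veh in the midbrain are therefore given with and without it. Marker genes matched the tissue labels, since 8 markers of midbrain dopaminergic neurons summed to 144 to 406 CPM in the midbrain and 21.6 to 27.3 CPM in the spinal cord, and 8 spinal cord Hox genes summed to 321 to 362 CPM in the spinal cord and at most 1.0 CPM in the midbrain.

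All 9 genes passed the filter on low counts in both tissues, but they differed widely in depth. ND6 had 466 to 1583 counts per library in the midbrain and 1060 to 1990 in the spinal cord. Among the tRNAs the median count per library ran from 7 for TrnC to 116 for TrnP in the midbrain, and from 5.5 to 123 for the same genes in the spinal cord. TrnC fell under 10 counts in 13 of 20 midbrain and 16 of 20 spinal cord libraries, so its values carry the largest counting error of the 9 genes.

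In Con mice the light-strand genes were far below the heavy-strand mRNAs once each level was divided by gene length. ND6 reached 152 ± 21.6 CPM per kilobase in the midbrain and 205 ± 39.8 CPM per kilobase in the spinal cord (mean ± SD, n = 4 in each). The heavy-strand mRNAs ranged from 3111 CPM per kilobase for ND3 to 25864 CPM per kilobase for ATP6 in the midbrain, and from 2543 to 22792 CPM per kilobase in the spinal cord. By these means no heavy-strand mRNA came within 10-fold of ND6, although the gap was smaller in spinal cord Con library 4, where ND3 stood at 2035 and ND6 at 212 CPM per kilobase. ND5, which lies opposite the 3′ end of ND6, averaged 5490 CPM per kilobase in the midbrain.

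The tRNAs did not follow the order of their genes along the transcript. In midbrain Con libraries TrnP, which is met first, was the highest tRNA at 143 CPM per kilobase, followed by TrnN at 108, TrnE at 83.6, TrnY at 71.9, TrnS1 at 55.3, TrnQ at 43.4, TrnA at 34.5 and TrnC at 7.31 CPM per kilobase. The spinal cord gave the same order, from 153 CPM per kilobase for TrnP down to 6.62 CPM per kilobase for TrnC. TrnC lies between TrnY and TrnN on the transcript and was the lowest of the 9 genes, and in both tissues its 4 Con libraries lay below those of every other light-strand gene. All other neighbours in the order of tRNAs overlapped between libraries. Recovery of such short RNAs in these libraries was not measured.

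**Figure D1:**
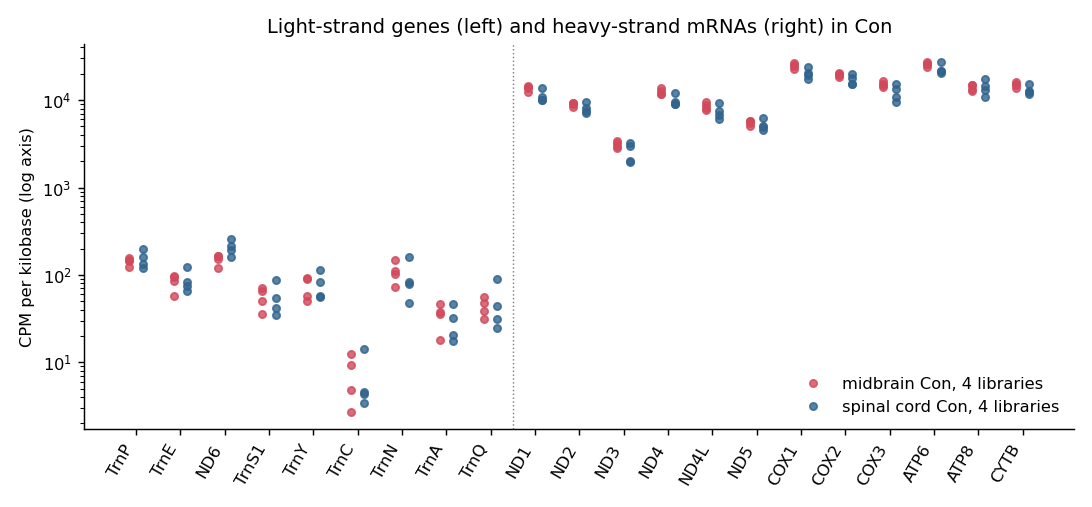
Level of each light-strand gene (left of the dotted line, in the order in which a light-strand transcript meets them) and of each heavy-strand mRNA (right) in CPM per kilobase on a log axis, with 1 point for each of the 4 Con libraries of midbrain (red) and spinal cord (blue), scaled within each tissue. ND6 averaged 152 and 205 CPM per kilobase and TrnC 7.31 and 6.62, whereas the lowest heavy-strand mRNA, ND3, averaged 3111 and 2543.

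In the midbrain, ND6 was lower in all 12 libraries given SUEHP than in all 8 libraries that were not. Con libraries held 62.5, 86.3, 79.9 and 86.3 CPM of ND6. MPTP-Veh libraries held 123, 96.5, 78.1 and 149 CPM, the last being library 4. MPTP-SU libraries held 37.2, 31.8, 32.2 and 40.4 CPM. MPTP-Veh therefore overlapped Con, whereas the highest MPTP-SU library was below the lowest library of either. MPTP-SU+S libraries held 38.0, 30.8, 31.5 and 44.7 CPM, and MPTP-SU+T libraries held 38.7, 37.6, 44.3 and 32.7 CPM. The order of the group means was MPTP-Veh (112 ± 30.9 CPM, or 99.2 ± 22.5 CPM without library 4), Con (78.7 ± 11.2 CPM), MPTP-SU+T (38.3 ± 4.75 CPM), MPTP-SU+S (36.2 ± 6.53 CPM) and MPTP-SU (35.4 ± 4.14 CPM), each over 4 libraries. The only gap in this order lay between Con and the groups with SUEHP, and the 3 groups with SUEHP overlapped one another. ND6 was the only one of the 9 genes whose 12 libraries with SUEHP all lay below the 8 without, a separation that 1.86% of all genes tested showed in the same direction and 2.89% in either direction. It is given as a description, because MPTP-SU and MPTP-Veh are among these libraries.

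**Figure D2:**
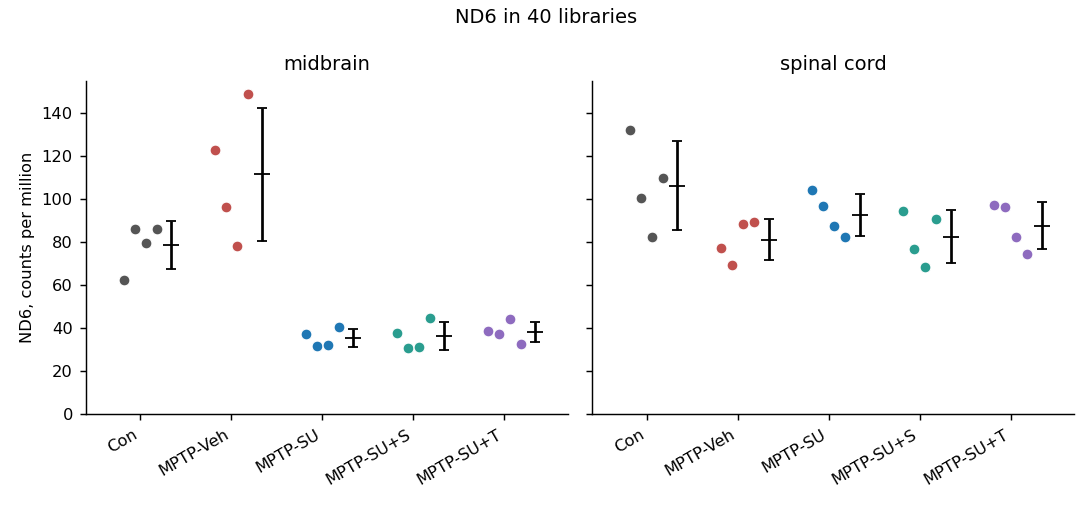
ND6 in CPM in each of the 40 libraries by group, midbrain (left) and spinal cord (right), with 1 point per library and the mean ± SD of 4 libraries beside each group. In the midbrain the 12 libraries given SUEHP lay between 30.8 and 44.7 CPM and the other 8 between 62.5 and 149 CPM, whereas in the spinal cord the groups overlapped.

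MPTP-SU+S and MPTP-SU+T were compared with Con by edgeR's quasi-likelihood test, since these comparisons use no library of the contrast that singled out ND6, although their spread was estimated over all 20 midbrain libraries. Both groups differ from Con in MPTP, SUEHP and an antagonist at once, and no group received an antagonist without SUEHP. The parts of these treatments in the comparisons cannot be told apart. ND6 fell in MPTP-SU+S relative to Con by 1.12 on the log2 scale (SE 0.18, Benjamini-Hochberg adjusted p = 0.00621 over 16629 genes). It was the only one of the 9 genes called, where a call needs an adjusted p under 0.05 and a change of over 1.5-fold, and 0.704% of all genes tested were called in this comparison. ND6 also fell in MPTP-SU+T relative to Con, by 1.04 on the log2 scale (SE 0.18, edgeR adjusted p = 0.0243), again as the only one of the 9, with 0.156% of all genes called. The 95% intervals ran from −1.47 to −0.77 and from −1.39 to −0.69, and the groups did not overlap in either comparison, which held for 9.87% and 7.15% of all genes in this direction. These comparisons share the Con libraries. DESeq2 also called ND6 and none of the tRNAs in both, where it called 284 and 180 of all genes tested.

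Library 4 of MPTP-Veh belongs to neither comparison but widened the common spread of the fit. Without it the ND6 fold changes were the same to 2 decimals, at −1.12 (SE 0.15, edgeR adjusted p = 0.000386) and −1.04 (SE 0.15, edgeR adjusted p = 0.00137), while 2.85% and 1.73% of all genes were then called. With library 4 in the fit, the MPTP-SU+S call held when each of its 8 libraries was left out in turn, but the MPTP-SU+T call was lost in 5 of 8 such fits, namely without Con library 2 (edgeR adjusted p = 0.119), Con library 4 (0.0790), or MPTP-SU+T library 1 (0.157), 2 (0.170) or 4 (0.0880). With library 4 also left out, the MPTP-SU+T call held in all 8.

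Markers of other tissues differed between these groups too. In the midbrain Con libraries the 6 choroid plexus markers summed to 19.4, 1250.5, 93.6 and 574 CPM, against 20.7 to 63.7 CPM in MPTP-SU+S and MPTP-SU+T, and the 6 leptomeningeal markers summed to 227 to 415.5 CPM in Con against 77.6 to 265 CPM in those groups. The 7 hypothalamus markers varied widely within groups. They summed to 4.01, 7.28, 450 and 43.6 CPM in Con, 2.91 to 75.9 CPM in MPTP-SU+S and 2.39 to 111 CPM in MPTP-SU+T. Within Con, the libraries had the same order by ND6 as by the choroid plexus markers, with library 1 lowest, then library 3, library 4 and library 2, the last pair both at 86.3 CPM of ND6 after rounding. In MPTP-Veh the choroid plexus markers summed to 19.8 to 34.5 CPM (to 31.9 CPM without library 4), and ND6 held 78.1 to 149 CPM (to 123 CPM). Library 1 of MPTP-Veh, with 123 CPM of ND6, held 659 CPM of hypothalamus markers, and its other libraries held 5.76 to 11.9 CPM. The 8 nuclear long RNAs used as a sign of RNA quality summed to 7306 to 7900 CPM in Con and 6887 to 8239 CPM in MPTP-SU+S and MPTP-SU+T, and so overlapped. The part of the marker differences in the ND6 result was not tested.

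None of the 8 light-strand tRNAs was called. Their fold changes relative to Con ran from −0.81 for TrnP to 0.28 for TrnQ in MPTP-SU+S and from −0.60 for TrnP to 0.19 for TrnQ in MPTP-SU+T on the log2 scale, and the smallest edgeR adjusted p among them was 0.681 and 0.783. TrnP held 9.55, 8.29, 9.79 and 10.6 CPM in Con, 9.83, 3.63, 4.30 and 4.03 CPM with MPTP-SU+S, and 9.66, 5.74, 5.79 and 4.21 CPM with MPTP-SU+T. Library 1 of both antagonist groups was thus level with Con, and the other 3 libraries of each were below every Con library. When MPTP-Veh library 4 was left out of the fit, TrnP stood at −0.82 (SE 0.30, edgeR adjusted p = 0.0872) in MPTP-SU+S, still short of a call, and it was called when MPTP-SU+S library 1 was left out as well. TrnE, which directly precedes ND6 on the transcript, stood at −0.16 (SE 0.57) for MPTP-SU+S and 0.04 (SE 0.56) for MPTP-SU+T. With SEs of 0.46 to 0.78 in this fit, a change in a tRNA as large as that of ND6 could have gone uncalled. The log2 ratio of ND6 to the summed light-strand tRNAs differed from Con by −0.77 with MPTP-SU+S and by −0.80 with MPTP-SU+T. Both groups overlapped Con, so this ratio does not show whether ND6 and the tRNA sum differed in their change.

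Among the other mitochondrial genes, 0 of the 12 heavy-strand mRNAs were called in either comparison by edgeR. They ran from −0.32 for ND4L to 0.35 for ND3 in MPTP-SU+S (median 0.03) and from −0.31 for ND2 to 0.25 for ND3 in MPTP-SU+T (median −0.01), while the median over all genes was 0.02 and 0.01. Both rRNAs were above Con without being called, at 0.53 and 0.57 with MPTP-SU+S and 0.62 and 0.66 with MPTP-SU+T. None of 19 genes of mitochondrial transcription and replication, 22 genes of mitochondrial RNA processing and decay, and 15 synthetases and modifying enzymes of the light-strand tRNAs was called in either comparison. Their medians lay between −0.12 and 0.07 on the log2 scale, and ND6 lay outside the range of all these lists.

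**Figure D3:**
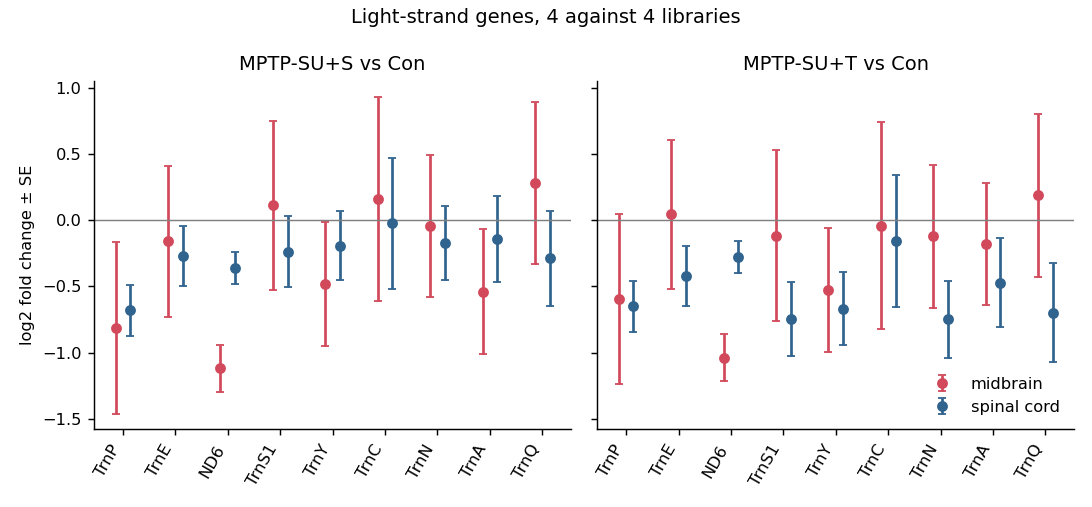
Log2 fold change ± SE from edgeR of each light-strand gene, in transcript order, in MPTP-SU+S against Con (left) and MPTP-SU+T against Con (right), 4 against 4 libraries, for midbrain (red) and spinal cord (blue). Midbrain ND6 stood at −1.12 and −1.04 with an SE of 0.18, and the midbrain tRNAs spread from −0.81 to 0.28 with wider errors.

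The remaining midbrain comparisons are described without a test. In MPTP-Veh against Con, ND6 differed by 0.50 on the log2 scale (0.33 without library 4). The nuclear long RNAs used as a sign of RNA quality also set MPTP-Veh apart, at 8904 to 14762 CPM (at most 10589 CPM without library 4) against 7306 to 7900 CPM in Con, and their part in the values of MPTP-Veh was not tested. The tRNAs differed by 1.37 for TrnA to 2.70 for TrnQ with library 4 and by 0.51 for TrnN to 1.18 for TrnQ without it, so all 9 genes were on the side of MPTP-Veh under both settings. Only TrnE and TrnQ did not overlap, being higher in every MPTP-Veh library than in every Con library, where 6.37% of all genes did so. TrnQ held 2.23, 2.74, 3.98 and 3.37 CPM in Con and 9.80, 7.20, 4.10 and 60.1 CPM in MPTP-Veh.

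In MPTP-SU against MPTP-Veh, the contrast that chose ND6, its fold change was −1.65 on the log2 scale (−1.48 without library 4). The nuclear long RNAs separated these groups as well, with 6437 to 8216 CPM in MPTP-SU, below every MPTP-Veh library. The tRNAs ran from −2.01 for TrnA to −3.38 for TrnP with library 4, and from −0.97 for TrnN to −1.60 for TrnP without it. TrnP held 5.30, 4.37, 3.49 and 5.06 CPM in MPTP-SU against 18.1, 14.7, 8.62 and 149 CPM in MPTP-Veh. Without library 4 the tRNA values thus lay on both sides of that of ND6, whereas with it all 8 were larger in size. Apart from TrnS1 and TrnC, the 9 genes did not overlap between these groups, beside 11.3% of all genes in this direction. The summed heavy-strand tRNAs separated these groups too. They took 0.00962 to 0.0139% of counts in MPTP-SU and 0.0219 to 0.122% in MPTP-Veh (to 0.0340% without library 4). In Con they took 0.0129 to 0.0222%, which overlapped both groups.

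With an antagonist added to SUEHP, ND6 differed from MPTP-SU by 0.03 on the log2 scale under MPTP-SU+S and by 0.11 under MPTP-SU+T, with an SE of 0.18 in both. The tRNAs differed by 0.10 to 0.45 and by 0.10 to 0.47. All 9 genes overlapped with MPTP-SU in both comparisons, where 2.15% and 1.96% of all genes did not.

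Summed over the 8 tRNAs, the midbrain levels were 35.8, 27.4, 45.5 and 41.7 CPM in Con and 83.0, 61.6, 38.4 and 446 CPM in MPTP-Veh. MPTP-SU libraries held 27.4, 21.5, 22.7 and 29.9 CPM, MPTP-SU+S libraries 57.0, 21.1, 24.8 and 23.5 CPM, and MPTP-SU+T libraries 45.5, 26.5, 23.0 and 34.6 CPM. Unlike ND6, the tRNA sum thus overlapped Con in all 3 groups with SUEHP.

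**Figure D4:**
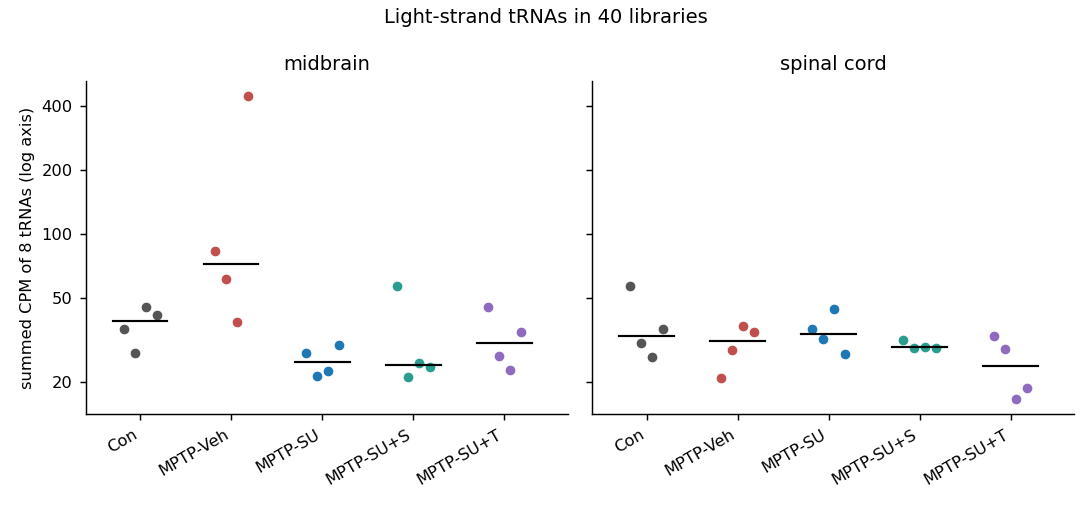
Summed CPM of the 8 light-strand tRNAs in each of the 40 libraries by group on a log axis, midbrain (left) and spinal cord (right), with 1 point per library and a line at the group median. Midbrain MPTP-Veh library 4 stood at 446 CPM, and the groups with SUEHP overlapped Con in both tissues.

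In the spinal cord, none of the 9 genes was called in any of the 6 comparisons. ND6 held 132, 100, 82.7 and 110 CPM in Con and 77.1, 69.6, 88.6 and 89.6 CPM in MPTP-Veh. MPTP-SU libraries held 104, 96.8, 87.6 and 82.3 CPM, MPTP-SU+S libraries 94.7, 76.97, 68.4 and 90.7 CPM, and MPTP-SU+T libraries 97.3, 96.3, 82.6 and 74.7 CPM. In order the means were 106 ± 20.6 CPM (Con), 92.7 ± 9.67 CPM (MPTP-SU), 87.7 ± 11.0 CPM (MPTP-SU+T), 82.7 ± 12.2 CPM (MPTP-SU+S) and 81.2 ± 9.60 CPM (MPTP-Veh), each over 4 libraries, and every neighbouring pair in this order overlapped. No gene in the spinal cord separated the 12 libraries with SUEHP from the 8 without (0% of all genes tested).

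Relative to Con, spinal cord ND6 stood at −0.39 on the log2 scale in MPTP-Veh (SE 0.12, edgeR adjusted p = 0.237, 95% interval −0.63 to −0.15), where 0% of all genes were called. In MPTP-SU+S against Con it stood at −0.36 (edgeR adjusted p = 0.121, 95% interval −0.60 to −0.12), beside 0.03% of genes called. In MPTP-SU+T against Con it stood at −0.28 (edgeR adjusted p = 0.428, 95% interval −0.52 to −0.04), beside 0.00599% of genes called. All 3 values lay below Con but within 1.5-fold of it, and the comparisons share the Con libraries. The nuclear long RNAs summed to 8923 to 10370.4 CPM in spinal cord Con, above every library of MPTP-Veh (8336 to 8719 CPM) and MPTP-SU+S (8269 to 8866 CPM) and overlapping MPTP-SU+T (7954.5 to 9358 CPM), and their part in the ND6 values was not tested. Spinal cord ND6 stood at 0.19 in MPTP-SU against MPTP-Veh (edgeR adjusted p = 0.999, 95% interval −0.05 to 0.43). Against MPTP-SU it stood at −0.16 in MPTP-SU+S (edgeR adjusted p = 0.919) and at −0.08 in MPTP-SU+T (edgeR adjusted p = 0.828). The background of called genes was 0%, 0% and 0.024% in these 3 comparisons.

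At an unadjusted p under 0.05, edgeR gave 1 of the 9 genes in spinal cord MPTP-Veh against Con (ND6), where 12.8% of all genes tested passed the same limit. It gave 0 in MPTP-SU against MPTP-Veh (3.81% of all genes), 1 in MPTP-SU+S against MPTP-SU (TrnP, beside 5.49%) and 2 in MPTP-SU+T against MPTP-SU (TrnP and TrnN, beside 12.1%). It gave 2 in MPTP-SU+S against Con (ND6 and TrnP, beside 19.4%) and 5 in MPTP-SU+T against Con (ND6, TrnP, TrnS1, TrnN and TrnY, beside 10% of all genes). DESeq2 called 0 of the 9 in all 6 comparisons, in which it called only 0 to 12 of all genes tested.

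TrnP came closest to a call in the spinal cord. It held 13.2, 8.07, 8.98 and 10.8 CPM in Con and 7.95, 4.89, 5.61 and 7.12 CPM in MPTP-SU+S, so every MPTP-SU+S library was below every Con library, as for 2.95% of all genes. Its fold change was −0.68 on the log2 scale (SE 0.19, edgeR adjusted p = 0.0866), and it was called when low-count genes were kept, without Con library 2, or without MPTP-SU+S library 1.

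All 9 light-strand genes had negative fold changes in spinal cord MPTP-Veh against Con, from −0.57 for TrnQ to −0.19 for TrnS1. All 9 were positive in MPTP-SU against MPTP-Veh, from 0.01 for TrnS1 to 0.61 for TrnC. They were all negative in MPTP-SU+T against Con, from −0.75 for TrnN to −0.16 for TrnC. The 14 heavy-strand tRNAs took the same signs in these comparisons (medians −0.31, 0.38 and −0.72), whereas the 12 heavy-strand mRNAs had medians of 0.21, 0.03 and −0.06. These genes share transcripts and libraries and are not independent of one another. In the spinal cord, 0 of the 12 heavy-strand mRNAs were called except in MPTP-SU+T against MPTP-SU, where ATP8, a subunit of ATP synthase, fell by 0.61 on the log2 scale.

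Between the untreated tissues, ND6 was lower in midbrain Con than in spinal cord Con by a log2 difference of −0.42 (SE 0.16, edgeR adjusted p = 0.0409), which passed the adjusted p but was under 1.5-fold and so was not called, where 16.4% of all genes were. The tRNAs differed by −0.11 for TrnQ to 0.26 for TrnN, with a smallest edgeR adjusted p of 0.702. DESeq2 called 0 of the 9, beside 2953 of all genes tested.

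The difference between tissues was then tested directly for the effect of treatment. The change of ND6 relative to Con was lower in the midbrain than in the spinal cord by a log2 difference of −0.76 under MPTP-SU+S (SE 0.22, edgeR adjusted p = 0.128) and of −0.76 under MPTP-SU+T (SE 0.22, edgeR adjusted p = 0.127). Neither passed, while 0.43% and 0.367% of all genes did, and ND6 was the only one of the 9 genes at an unadjusted p under 0.05 in both (9.73% and 10.1% of all genes). DESeq2 called 0 of the 9 in either, beside 168 and 163 of all genes tested. Without midbrain MPTP-Veh library 4 the differences were −0.75 in both (edgeR adjusted p = 0.0391 and 0.0314) and ND6 was called, so the call depended on whether that library was used to estimate the spread.

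Division by the heavy-strand mRNAs of the same library removes the scaling between libraries. The log2 ratio of ND6 to the summed counts of the 12 heavy-strand mRNAs was −11.26, −10.90, −10.93 and −10.69 in midbrain Con libraries. With MPTP-SU+S it was −11.46, −12.28, −12.43 and −11.93, and with MPTP-SU+T it was −12.10, −12.10, −11.58 and −11.84, so that every library of both groups was below every Con library. The differences of the means were −1.08 and −0.96 (exact permutation test, two-sided, p = 0.0286 for each, which is the smallest p that 4 against 4 libraries can give, and 0.0762 when adjusted over 8 comparisons). The ratio in MPTP-SU, given as a description, averaged −11.91 ± 0.40, level with both antagonist groups. In MPTP-Veh it was −9.82, −10.50, −10.93 and −6.66, averaging −9.48 ± 1.93, or −10.42 ± 0.56 over 3 libraries without library 4. In library 4 ND6 made up 0.977% of mitochondrial mRNA counts against at most 0.110% in the other midbrain libraries.

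In the spinal cord the ratio was −9.88, −10.61, −10.53 and −10.11 in Con and −10.82, −11.17, −10.77 and −10.86 in MPTP-Veh. These groups did not overlap, and the difference was −0.62 (exact permutation test, p = 0.0286, adjusted 0.0762). In the 5 other spinal cord comparisons it ranged from −0.75 in MPTP-SU+S against Con (exact permutation p = 0.0571, adjusted 0.114) to 0.25 in MPTP-SU+T against MPTP-SU (exact permutation p = 0.143). Between the untreated tissues the ratio was lower in the midbrain by −0.66 (exact permutation p = 0.0286). No ratio passed after adjustment, and the design cannot reach an adjusted p under 0.05 unless several comparisons reach the smallest p.

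The proportion between the tRNAs of both strands was compared in the same way. The log2 ratio of summed light-strand to summed heavy-strand tRNA counts averaged −2.21 ± 0.11 in midbrain Con and −2.12 ± 0.36 with MPTP-Veh (mean ± SD, n = 4 in each). Library 4 stood at −1.63, the highest of the midbrain libraries, and without it MPTP-Veh averaged −2.29 ± 0.18, below rather than above Con. With SUEHP it averaged −2.31 ± 0.22 alone, −2.40 ± 0.28 with the CB1 antagonist and −2.31 ± 0.11 with the PPARγ antagonist. The lowest midbrain library was at −2.71, in MPTP-SU+S. In the spinal cord the group means ran from −2.12 to −1.89, and between the untreated tissues the ratio was lower in the midbrain by −0.25 (exact permutation p = 0.0286, not adjusted). Between groups, the smallest exact permutation p among 8 tested comparisons was 0.0286, in spinal cord MPTP-SU+T against MPTP-SU (difference 0.24), with an adjusted p of 0.229. In MPTP-Veh library 4, with a tRNA sum several times that of the other libraries, tRNAs of both strands were high together, at 0.0396% of counts for the light strand and 0.122% for the heavy strand against at most 0.00792% and 0.0340% in the other midbrain libraries. Against the 2 rRNAs, the log2 ratio of ND6 differed from midbrain Con by −1.67 under MPTP-SU+S and by −1.54 under MPTP-SU+T (exact permutation p = 0.0286 for each, adjusted 0.114 over 8 comparisons). The rRNAs took 1.58 to 1.84% of counts in midbrain Con, 2.22 to 2.70% in MPTP-SU+S and 1.63 to 4.26% in MPTP-SU+T. These ratios thus take in differences in rRNA and not in ND6 alone. In the spinal cord the ratio of ND6 to the rRNAs differed from Con by 0.11 in MPTP-Veh, −0.0071 with MPTP-SU+S and 0.18 with MPTP-SU+T (exact permutation, adjusted p = 0.971 for each). The Con libraries stood at −7.46, −8.18, −6.92 and −6.51, with rRNA shares of 2.31%, 2.63%, 1.04% and 1.04% of counts. MPTP-Veh stood at −7.33 to −6.98. MPTP-SU+T library 1, with 2.34% rRNA, stood at −8.04. Con libraries 1 and 2, rich in rRNA, thus widened the spread of Con. The ratio to the rRNAs therefore cannot decide whether the value of −0.62 found there against the mRNAs in MPTP-Veh also holds against the rRNAs.

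**Figure D5:**
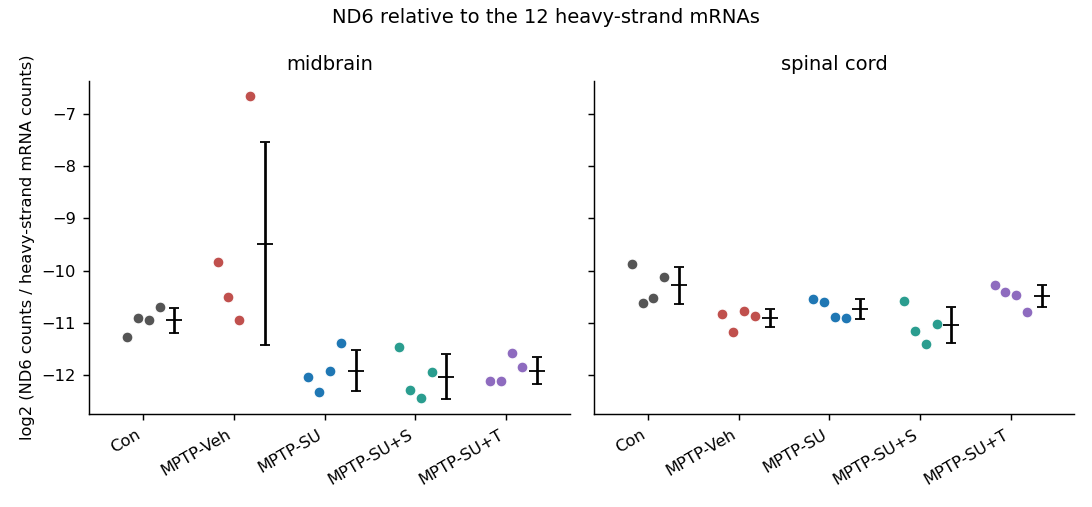
Log2 ratio of ND6 counts to the summed counts of the 12 heavy-strand mRNAs in each of the 40 libraries by group, midbrain (left) and spinal cord (right), with 1 point per library and the mean ± SD of 4 libraries. Midbrain groups with SUEHP averaged −12.02 to −11.91 against −10.94 in Con, and MPTP-Veh library 4 stood at −6.66.

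Across the spinal cord libraries, ND6 correlated with the summed light-strand tRNAs. Over 20 spinal cord libraries the log2 CPM of ND6 and of the tRNA sum had a Pearson r of 0.66 and a Spearman rho of 0.65 (permutation p = 0.00204 and 0.00236, adjusted 0.00408 and 0.00472 over 2 relations). Without Con library 1 and MPTP-SU+T library 3, the farthest from the median tRNA sum, r was 0.54, and it was 0.70 for deviations from the group means (permutation p = 0.00435). As single genes, which were not tested, the 8 light-strand tRNAs had a rho with ND6 of 0.0737 to 0.641. The 14 heavy-strand tRNAs had one of 0.229 to 0.696, and these ranges overlapped. With the summed heavy-strand mRNAs, r was −0.37 and rho −0.36 (permutation p = 0.107 and 0.114), and r was −0.43 without the 2 farthest libraries. In the midbrain ND6 fell into separate clusters with and without SUEHP, so the relation is described within each. Among the 12 libraries with SUEHP r was 0.21 with the tRNA sum and −0.05 with the heavy-strand mRNAs. Among the 8 without, r was 0.86 and −0.79, and 0.42 and −0.37 without MPTP-Veh libraries 1 and 4, so the relation there rested largely on those libraries. All these measures share the library's scaling factor.

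The genes whose levels most resembled those of ND6 were ranked by Spearman rho of log2 CPM over the 20 libraries of each tissue, as a description. In the midbrain they were Top1mt, which encodes the mitochondrial topoisomerase I (rho 0.965 among 16628 genes), Bex2 (0.943), Pfdn2 (0.932), the superoxide dismutase gene Sod1 (0.932) and Pin4 (0.931). Top1mt held 14.3 to 17.2 CPM in Con, 15.7 to 60.03 CPM with MPTP-Veh, 10.9 to 12.8 CPM with MPTP-SU, 10.8 to 13.3 CPM with MPTP-SU+S and 11.0 to 14.6 CPM with MPTP-SU+T. It was called in neither antagonist group against Con. The midbrain ranking takes in the MPTP-SU and MPTP-Veh libraries that chose ND6, and the clusters of ND6 with and without SUEHP. A gene lower in the libraries with SUEHP thus ranks high in it, and likeness within the clusters was not ranked. TrnP ranked 425 with a rho of 0.806, and the heavy-strand TrnM ranked 714 with a rho of 0.758. The heavy-strand mRNAs had a rho of −0.498 for COX3 to 0.143 for CYTB. In the spinal cord the leading genes were Zfp462 (0.881), Ppm1b (0.865), Camk2n1 (0.856), Hnrnpa2b1 (0.820) and Gm867 (0.793), with the heavy-strand TrnV at rank 40 (0.696) and TrnP at rank 86 (0.641), and no gene stood in both lists.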

How the data were processed

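The count tables deposited by the authors hold estimated counts per gene symbol, as whole numbers without normalization, for 40 libraries. Per the study's methods, poly(A)-selected RNA was made into libraries with the CORALL kit, sequenced in pairs, trimmed with fastp, aligned with STAR and counted with Salmon. The submitters' processing notes also name GATK and the build GRCm39. Versions and the strand setting are not given in the sources used here, nor were the authors' own normalized values used. How reads were assigned where genes overlap, and tRNAs shorter than a read, could move the low counts.

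Counts were fitted in R 4.3.3 with edgeR 4.0.16 (limma 3.58.1), using filterByExpr, TMM scaling and quasi-likelihood tests with Benjamini-Hochberg adjustment over all genes tested (16629 in the midbrain, 16682 in the spinal cord, 17426 over both tissues). Groups followed the labels, all libraries of a tissue shared 1 estimate of the spread, and a call needed an adjusted p under 0.05 and a fold change over 1.5. CPM values are TMM-scaled within a tissue. Ratios of counts were compared by exact two-sided permutation tests in Python 3.11.15 with scipy 1.17.1. Alternatives were DESeq2 1.42.0, other scalings and filters, fits of the compared groups alone, a replicate term and leaving out libraries. Library depth was 11958200 to 16639823 counts, and 3 to 10 counts, as for TrnC, give little precision. On simulated counts for MPTP-SU+S against Con, the step called 67 and 89 of 100 genes changed 2-fold and 4-fold among 16629 midbrain genes, and 80 and 95 of 100 among 16682 spinal cord genes.

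The text names all 9 genes, the extremes of the heavy-strand mRNAs, called members of other lists and the 5 genes most like ND6 in each tissue. The genes and lists were chosen with earlier results of these data known, so no result here is independent support for them. Sequences, lengths and positions come from GENCODE transcripts of GRCm38, matched for all 37 mitochondrial genes, and no coordinate of GRCm39 was used. The relation of ND6 to other RNAs had been planned over 20 midbrain libraries and was described within clusters instead.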

Additional observations from a re-analysis of the deposited data

Results flagged for a closer look

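In 130 sets of 4 libraries, formed by gene, sum or ratio, tissue and group, 18 held a library whose gap to the nearest other library took up most of the range of the set (Dixon's test at the 95% level). Chance gives such a gap in about 1 in 20 sets, and sets for genes of the same library are not independent.

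Midbrain MPTP-Veh library 4 was the highest of its group for TrnE (66.6 CPM), TrnP (149 CPM), TrnS1 (51.3 CPM), TrnQ (60.1 CPM), TrnN (71.4 CPM) and the sum of the 8 tRNAs (446 CPM). Midbrain MPTP-SU+S library 1 was the highest for TrnE (10.04 CPM), TrnP (9.83 CPM), TrnS1 (8.81 CPM), TrnN (13.4 CPM) and the sum (57.0 CPM). Midbrain MPTP-SU+T library 1 was the highest for TrnQ (5.13 CPM) and TrnY (5.65 CPM).

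In the spinal cord, TrnC was far above the rest of its group in Con library 1 (0.930 CPM) and MPTP-SU+T library 2 (0.812 CPM). MPTP-SU+S library 1 was the highest for TrnY (5.52 CPM) and for the tRNA sum (31.6 CPM), in a group whose other sums lay within 0.5 CPM of one another. The log2 ratio of ND6 to the light-strand tRNAs was lowest in MPTP-SU library 3, at 0.987 against 1.54 in the nearest library. ND6 itself had no such library in any group.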

How the results depend on the processing

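Every tested ND6 fold change, ratio and relation kept its direction under the alternatives run. Of the alternative values of the tested ND6 fold changes, 209 also kept their side of the threshold, 5 lost a call and 2 gained one. Among the descriptions, midbrain ND6 in MPTP-SU+S against MPTP-SU, which was near 0, ran from −0.08 to 0.10 with 1 library left out. Without midbrain MPTP-Veh library 4, an alternative chosen after seeing the data, the tissue differences of ND6 were −0.747 (MPTP-SU+S) and −0.754 (MPTP-SU+T) and became calls. With 1 library left out, midbrain ND6 in MPTP-SU+T against Con ranged from −1.14 to −0.97 and lost its call in 5 fits. Across the other scalings, filters and tools, its adjusted p was at most 0.0348, and that in MPTP-SU+S at most 0.0116. The count of all genes called depended more on the setting. In midbrain MPTP-SU+S against Con, 117 genes were called, against 284 with DESeq2, 463 in a fit of these 2 groups alone and 480 without MPTP-Veh library 4, and in MPTP-SU+T against Con 26, against 180, 73 and 292. With library totals alone the MPTP-SU+T count was 8. With 1 library left out, the MPTP-SU+S count ran from 25 to 114, and the MPTP-SU+T count was at most 3 in the 5 fits without the ND6 call and 13 to 83 in the other 3.

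The labels number the libraries. Correlations between libraries of the same number had a median of 0.02 in the midbrain, 0.003 in the spinal cord and 0.06 across tissues. Between libraries of different numbers the medians were −0.009, 0.003 and −0.010. Across tissues, 4 of 20 same-number pairs and 4 of 60 different-number pairs had a correlation over 0.1. These correlations cannot settle whether libraries of the same number share an animal or a batch. With a replicate block, midbrain ND6 stood at −1.13 in MPTP-SU+S against Con (edgeR adjusted p = 0.0116) and −1.03 in MPTP-SU+T against Con (0.0348), and the block changed no call of the 9 genes. Depth limits TrnC, with 3 to 63 counts per library, more than the other genes.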
